A study of Mus musculus with 5 samples.

Results

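Keratins are the intermediate filament proteins of epithelial cells. Each filament is built from obligate pairs, in which a type I (acidic) keratin joins a type II (basic) keratin, and the pair that a cell makes follows its place in the epithelium. In the prostate, secretory luminal cells make Krt8 and Krt18, basal cells make Krt5, Krt14 and Krt15, and stratified, cornifying or hair-forming epithelia use further pairs that are used as signs of squamous differentiation. The 54 genes described here are all the genes in the count table whose symbol is Krt followed by a number, with or without a closing letter, among 24527 genes in all. They were sorted into 4 luminal (Krt7, Krt8, Krt18, Krt19), 3 basal (Krt5, Krt14, Krt15), 17 squamous, 8 inner root sheath, 15 hair and 7 other keratins. The gene Krt85 was not analysed here.

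RNA-seq counts came from prostate tumors of 5 TripleTg mice, 3 castrated and 2 intact. Both groups shared every allele of the TripleTg genotype: a human HGF transgene (hHGFtg) active throughout the body, a human MET allele at the H11 locus (H11 hMET/+), and a Ctnnb1 allele that loses its exon 3 and then gives stabilized β-catenin (Ctnnb1 L(Ex3)/+). The Cre that switches on the last 2 (PB Cre4) is driven by a probasin promoter and acts in prostate epithelium. The castrated mice had lost their testes, and so their main source of androgen, at the age of 4 months and were analysed at 8 months; the intact mice were of the same age and genotype, and no mice without the transgenes are compared here. Both groups were on a mixed C57BL/6 and C3H SCID background. The libraries held 28015507, 18951782 and 20492061 counts in castrated mice 1, 2 and 3, and 21560355 and 22853501 in intact mice 1 and 2.

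One library stood apart in prostate secretory genes before any keratin was compared. The prostate secretory genes Tgm4 and Pbsn were near zero in 4 of the 5 mice. Tgm4, a secretory transglutaminase of the prostate, was at 0.419, 0.0536 and 0.0487 CPM (counts scaled to a common library size with TMM factors) in the castrated mice, at 0.224 in intact mouse 1 and at 1347 in intact mouse 2. Pbsn was at 0 in castrated mouse 2 and intact mouse 1 and reached 5.21 CPM in intact mouse 2, and Msmb was at 0 in every library. The epithelial marker Epcam was present throughout, at 736, 729 and 637 CPM in castrated and 1325 and 511 in intact mice. Over the 21 keratins with enough counts to test, the log2 CPM of the intact mice correlated with each other at a Pearson r of 0.741. This was the lowest value of any 2 mice. Intact mouse 1 reached 0.961 with castrated mouse 1, but 0.825 with castrated mouse 3. Intact mouse 2 stood at 0.797, 0.804 and 0.827 with castrated mice 1, 2 and 3. Over all tested genes the intact pair, at 0.848, was not the lowest: castrated mouse 3 had 0.826 and 0.819 with intact mice 1 and 2. Each r is taken across genes between 2 libraries and is given as a description. Since intact mouse 2 is 1 of only 2 in its group, each result is given below with its single values, and with the fit without that mouse where this matters.

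The summed keratin message was of similar size in both groups. Keratins took 0.365%, 0.279% and 0.402% of all counts in castrated and 0.462% and 0.329% in intact mice, so the groups overlapped. Per gene length (TPM, which divides counts by gene length and gives each library the same total), the order of the mean levels was Krt18 at 1393, Krt8 at 1183, Krt19 at 999, Krt23 at 605, Krt7 at 382, Krt15 at 200.1, Krt5 at 183, Krt14 at 88.7 and Krt4 at 80.04. The luminal keratins made up most of the keratin TPM in every mouse, 72.8%, 80.6% and 75.7% in castrated and 75.8% and 70.9% in intact. The basal share varied far more, with 6.86%, 9.55% and 16.5% in castrated mice, 1.30% in intact mouse 1 and 13.9% in intact mouse 2. Its lowest and its second highest value thus both belonged to intact mice.

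**Figure D1:**
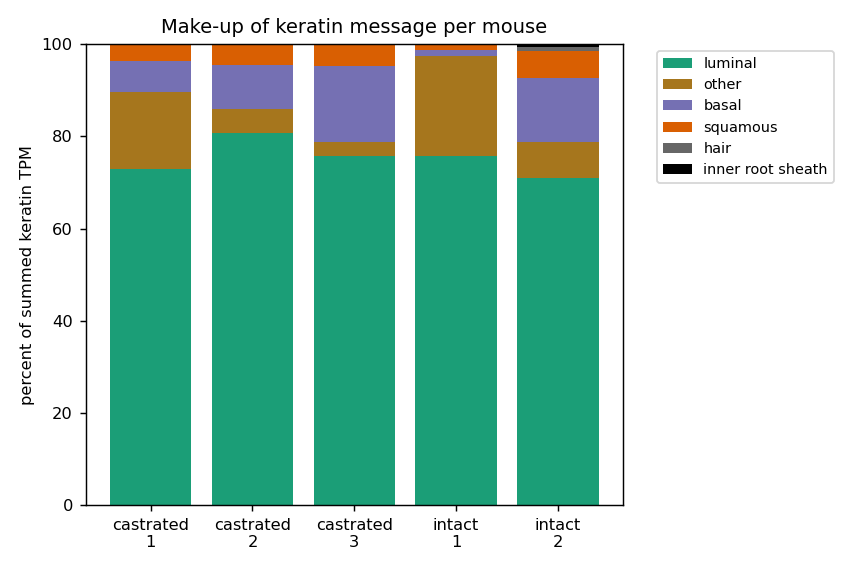
Share of the summed keratin TPM (vertical axis, percent) taken by each keratin group in each of the 5 mice (bars). Luminal keratins take 70.9% to 80.6% of every bar, while the basal share runs from 1.30% in intact mouse 1 to 16.5% in castrated mouse 3.

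To ask whether castration went with a different set of keratins, each gene with more than 1 CPM in at least 2 libraries was compared between groups with edgeR's quasi-likelihood F-test. Of the 54 keratins 21 passed this filter: 4 of 4 luminal, 3 of 3 basal, 9 of 17 squamous, 0 of 8 inner root sheath, 1 of 15 hair and 4 of 7 other keratins. No keratin was called at an adjusted p under 0.05 with an absolute log2 fold change above 1, and neither was any of the 14612 genes tested (0% called; smallest adjusted p 0.289). Before adjustment, 4 of the 21 keratins had p under 0.05 past that fold, Krt4, Krt15 and Krt222 toward castrated and Krt90 toward intact mice, against 10.9% of all tested genes (7.66% higher and 3.26% lower). Krt222 and Krt90 had passed the filter only through the group in which they were higher, so for those 2 a difference followed in part from the filter; with CPM above 1 asked of all samples, 2 keratins were left at that threshold, Krt15 and Krt4. The 3 higher ones were called after adjustment by 2 other tests, DESeq2 and edgeR's likelihood ratio test, which called 989 and 369 of all genes. A further test, limma voom, called 0 genes, with an adjusted p of 0.421 for each of Krt4, Krt15 and Krt222. In the same 4 keratins the groups did not overlap, 3 with every castrated mouse above both intact mice (17.0% of all genes) and 1 with every castrated mouse below (16.1% of all genes). The fold changes of 6 keratins were above 0 and of 15 below, with a median log2 fold change of -0.31 beside -0.03 for all tested genes. Over the same 21 genes that median was 1.22 without intact mouse 2 and 0.0093 without intact mouse 1. In bulk tumor RNA, fewer cells of a type and less RNA per cell cannot be told apart.

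**Figure D2:**
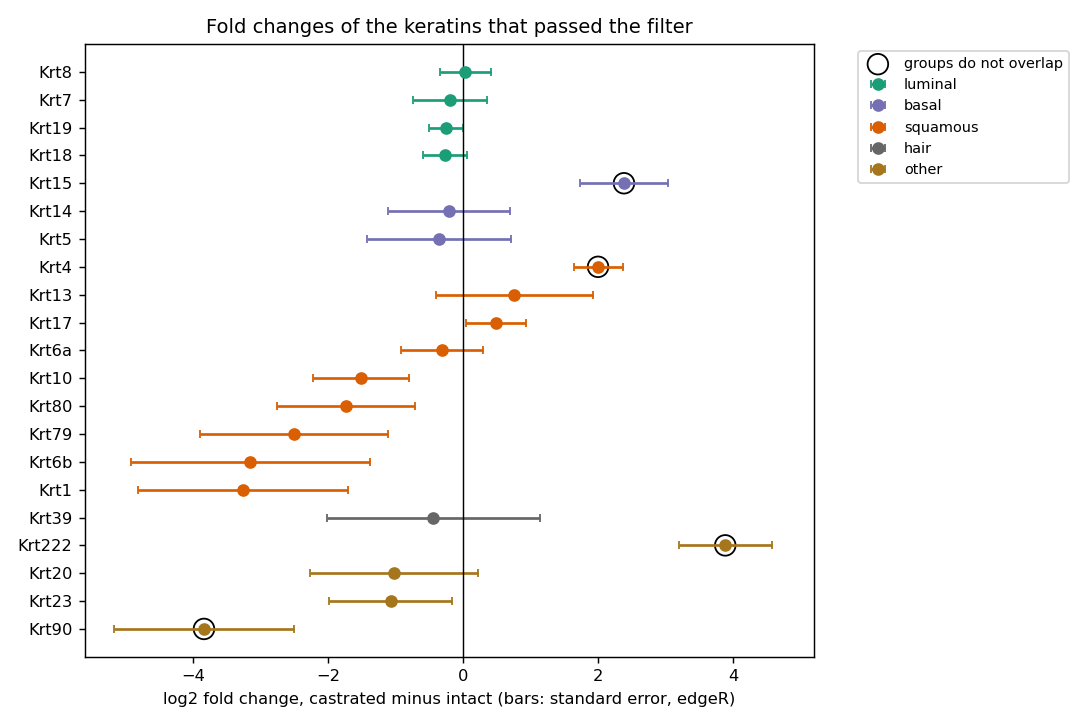
Log2 fold change of castrated minus intact mice (horizontal axis) with its standard error from edgeR for the 21 keratins that passed the filter, coloured by group. Open circles mark Krt15, Krt4, Krt222 and Krt90, whose values do not overlap between 3 castrated and 2 intact mice; no keratin had an adjusted p under 0.05.

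The luminal keratins differed little between the groups. Krt8, the type II partner of simple epithelia, was at 875, 777 and 1144 CPM in castrated and 1155 and 661 in intact mice, a log2 fold change of 0.04 ± 0.38 (standard error here and below; adjusted p = 0.974 by edgeR). Krt18, its type I partner and the neighbouring gene on chromosome 15, was at 851, 629 and 876 against 1110 and 779 CPM (-0.27 ± 0.33, adjusted p = 0.727 by edgeR). The intact values enclosed the castrated ones for Krt8, and the groups overlapped for Krt18. Krt19, a type I keratin without the usual tail domain, read 511, 561 and 668 CPM in castrated and 648 and 733 in intact mice (-0.25 ± 0.26). Krt7, a keratin of simple ducts, was at 283, 244 and 203 CPM in castrated mice, between the 439 of intact mouse 1 and the 117 of intact mouse 2 (-0.19 ± 0.55). Without intact mouse 2 its log2 fold change was -0.89, and without intact mouse 1 it was 1.08. The median of the 4 luminal genes was -0.22. The ratio of Krt8 to Krt18 per length was 0.797, 0.959 and 1.01 in castrated and 0.807 and 0.658 in intact mice; its log2 difference of 0.33 gave a two-sided exact permutation p of 0.4, where 3 against 2 mice can reach no less than 0.2.

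Krt15 parted from the other basal keratins. Krt15 (chr11:100131759-100135949, minus strand, mm10), a type I keratin of basal cells with no fixed partner of its own, was at 115, 171 and 373 CPM in castrated and 27.1 and 57.1 in intact mice. Every castrated mouse lay above both intact mice, as for 17.0% of all tested genes. The log2 fold change was 2.39 ± 0.65 (adjusted p = 0.290 by edgeR, adjusted p = 0.007 by DESeq2, adjusted p = 0.421 by limma voom). Krt5 (chr15:101707069-101712905, minus strand), the type II keratin of basal cells, read 128, 90.5 and 290 CPM in castrated mice, 28.9 in intact mouse 1 and 405 in intact mouse 2. Its castrated values thus sat between the 2 intact ones (-0.35 ± 1.06, adjusted p = 0.899 by edgeR). Krt14 (chr11:100203162-100207510, minus strand), the partner of Krt5, had the same order with 50.0, 49.6 and 99.7 CPM in castrated and 14.3 and 139 in intact mice (-0.21 ± 0.90). Without intact mouse 2 the log2 fold changes of Krt5 and Krt14 were 2.51 and 2.17, and without intact mouse 1 they were -1.24 and -1.05, so the direction for both genes rested on which intact mouse was used. For Krt15 the 5 fits that each left out 1 mouse gave 1.77 to 2.98. Without intact mouse 1 the gene no longer passed the unadjusted threshold.

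The pair Krt5 and Krt14 moved together from mouse to mouse. Per length, Krt5 stood at 1.99, 1.42 and 2.27 times Krt14 in castrated and 1.57 and 2.26 times in intact mice, although Krt5 ranged from 28.9 to 405 CPM and Krt14 from 14.3 to 139 (exact permutation p = 1.0 for the group difference of -0.02). Trp63, the transcription factor of basal cells, had the same order of mice as Krt5 and Krt14 at both ends, with 21.6, 30.9 and 88.3 CPM in castrated, 6.09 in intact mouse 1 and 101 in intact mouse 2. Of the other basal markers, Col17a1, a collagen of hemidesmosomes, was also lowest in intact mouse 1, with 54.0, 72.4 and 177 CPM in castrated and 24.7 and 108 in intact mice. The integrins Itga6 and Itgb4 did not share that order. Itga6, found on the basal surface, was at 324, 270 and 192 CPM in castrated and 373 and 798 in intact mice. Its integrin partner Itgb4 read 274, 169 and 164 against 454 and 143 CPM, so it was highest in intact mouse 1, where Krt5, Krt14 and Krt15 were all at their lowest. The log2 ratio of the summed basal keratins to Epcam was -1.33, -1.23 and 0.26 in castrated and -4.24 and 0.23 in intact mice. Its group difference of 1.24 (exact permutation p = 0.6) became 3.47 without intact mouse 2 and -1.0 without intact mouse 1.

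**Figure D3:**
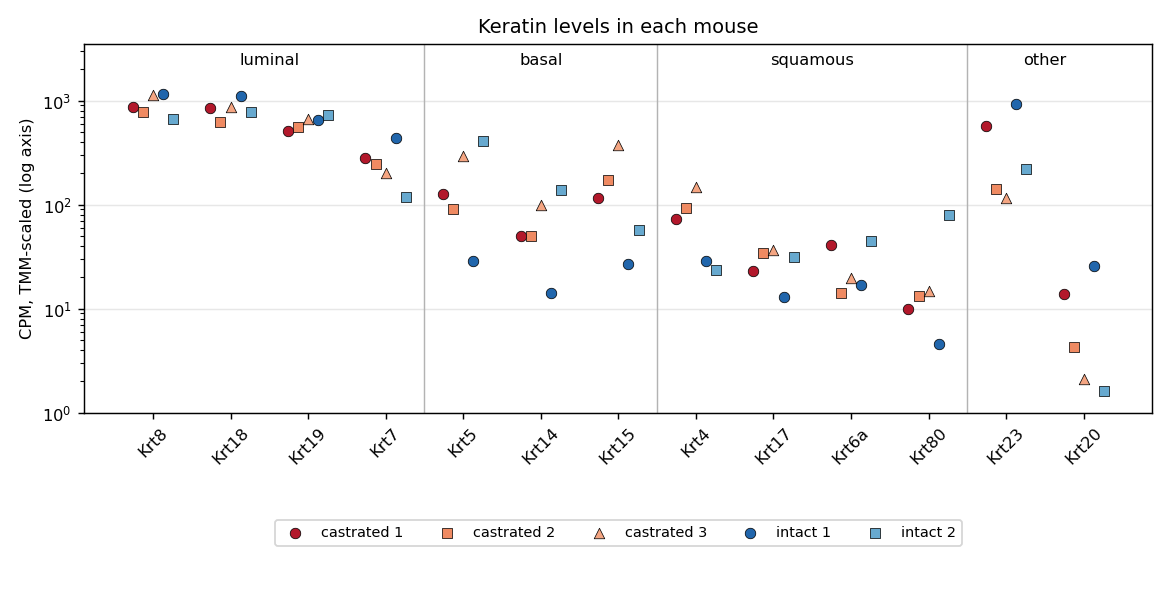
CPM (vertical log axis, TMM-scaled) of 13 keratins in each of the 5 mice, with castrated mice in red tones and intact mice in blue tones, grouped as luminal, basal, squamous and other. Krt15 and Krt4 are higher in all castrated mice than in both intact mice, while for Krt5, Krt14, Krt80 and Krt7 the 2 intact mice lie at opposite ends.

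Among the 9 squamous keratins tested, Krt4 was the 1 whose groups did not overlap. Of all tested genes, 17.0% were higher and 16.1% lower in every castrated mouse than in both intact mice. Krt4 (chr15:101918535-101924735, minus strand), the type II keratin of non-cornifying mucosal epithelia, was at 73.5, 93.6 and 147 CPM in castrated and 28.8 and 23.5 in intact mice. The groups did not overlap, with means of 105 ± 38.1 CPM (SD, n = 3) and 26.2 ± 3.74 (SD, n = 2). Its log2 fold change of 2.0 ± 0.36 (adjusted p = 0.289 by edgeR) stayed between 1.68 and 2.20 whichever mouse was left out. Krt13, its type I partner in such epithelia, did not follow it. Krt13 read 6.32, 0.429 and 6.82 CPM in castrated and 1.21 and 4.14 in intact mice (0.76 ± 1.16), so castrated mouse 2, with 93.6 CPM of Krt4, had the least Krt13. Krt4 exceeded Krt13 per length between 4.59 and 160 times (exact permutation p = 0.6 for the group difference). Krt4 also marks urothelium, and the 6 uroplakin genes used as urothelial markers summed to 45.5, 78.7 and 104 CPM in castrated and 22.9 and 151 in intact mice. Upk1b was the most abundant of them in castrated mice 1 and 2 and intact mouse 2, where it reached 127 CPM. Upk1a led in castrated mouse 3 and Upk3a in intact mouse 1, and Upk3b was at 0 in castrated mouse 2. Upk1a was the 1 member of 6 that was higher in every castrated mouse, a share near the 17.0% of all tested genes. It was at 9.28, 27.8 and 43.2 CPM against 2.02 and 6.04 (log2 fold change 2.73 ± 0.85, adjusted p = 0.300 by edgeR). The part of urothelial cells in the Krt4 and Krt15 values was not tested.

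Krt1, Krt10, Krt80, Krt79 and Krt6b were higher in intact mouse 2 than in any other mouse. Krt1, the type II keratin of the suprabasal epidermis, had 14.3 CPM in intact mouse 2 and 1.29, 0.322, 0.585 and 0.134 in castrated mice 1 to 3 and intact mouse 1. Krt10, its type I partner, had 11.9 CPM there against 2.29 to 2.73 elsewhere. The log2 fold changes of -3.26 ± 1.55 and -1.51 ± 0.71 therefore set the castrated mice against a pair of unlike intact mice. Krt80, found in cells that are entering terminal differentiation, read 9.98, 13.2 and 14.7 CPM in castrated, 4.53 in intact mouse 1 and 79.3 in intact mouse 2 (-1.73 ± 1.02). Krt79, a keratin of the hair canal and glands, was at 12.6 CPM in intact mouse 2 and at 0.358 to 2.27 in the others (-2.51 ± 1.39), and Krt6b at 10.7 against 0 to 1.12 (-3.15 ± 1.76). Of the 9 squamous keratins tested 6 were highest in intact mouse 2, against 31.3% of all tested genes. Their median log2 fold change was -1.51 with all mice and 1.61 over the same 9 genes without intact mouse 2, where Krt80 alone changed from -1.73 to 1.44. The stress-associated keratins were less one-sided, with Krt6a at 41.0, 14.3 and 19.8 CPM in castrated and 17.0 and 45.1 in intact mice, and Krt17 at 22.8, 33.9 and 36.9 against 13 and 31.4 (-0.31 ± 0.61 and 0.49 ± 0.45). Krt6a and Krt6b, and Krt16, Krt17 and Krt42, are related neighbouring genes. Their sequence identity was not computed and sharing of reads was not tested, so the split of reads within each set is uncertain.

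By the rule of the filter, each of the 33 keratins that did not pass exceeded 1 CPM in at most 1 library. Of these, 4 (Krt24, Krt26, Krt74, Krt82) had no count in any library and 8 had 1 to 9 counts over all libraries together. A count of 0 allows up to 0.105, 0.161 and 0.146 CPM in the castrated and 0.134 and 0.139 in the intact libraries, from counting error alone. The other 21 summed to 142, 60 and 97 counts in castrated mice, 74 in intact mouse 1 and 3072 in intact mouse 2. Among all 33, 15 exceeded 1 CPM in intact mouse 2 alone and 17 had more than 80% of their counts there. No share over all genes was computed for the counts of 15 and 17. Tested or not, 30 of the 54 keratins had their highest CPM in intact mouse 2, beside 5765 of the 24527 genes in all. A single library above 1 CPM does not pass the filter, so these genes were not tested.

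**Figure D4:**
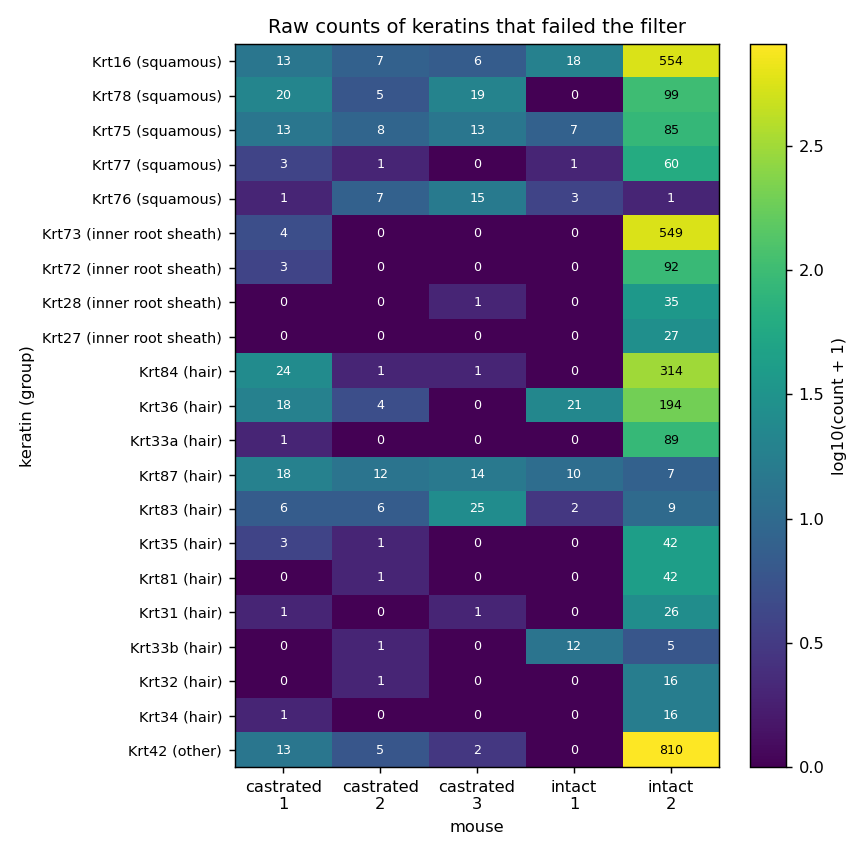
Raw counts (numbers in the cells; colour is log10 of the count plus 1) of the 21 keratins that failed the filter and had at least 10 counts over the 5 mice, by group. The column of intact mouse 2 holds 3072 of the counts, against 60 to 142 in each of the other mice.

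The inner root sheath keratins, which form the sleeve that moulds a growing hair, were the clearest case of counts held by intact mouse 2. Their 8 genes summed to 7, 0 and 1 counts in castrated mice, 0 in intact mouse 1 and 706 in intact mouse 2. Krt73 had 549 counts in intact mouse 2, 4 in castrated mouse 1 and none elsewhere, Krt72 had 92 and 3 in the same libraries, and Krt28 and Krt27 had 35 and 27 counts in intact mouse 2 with 1 count or none in all others together. Krt25 and Krt71, which belong to the same sheath, had 2 and 1 counts, so not every member was found at such counts. Of the hair shaft keratins, Krt84 had 24, 1 and 1 counts in castrated mice and 0 and 314 in intact mice. Krt36 had 18, 4, 0, 21 and 194 counts in that order, and Krt33a had 1, 0, 0, 0 and 89. Krt35 and Krt81 each had 42 counts in intact mouse 2 and Krt31 had 26, against at most 3 in any other library. Not every hair keratin did this: Krt87 had 18, 12 and 14 counts in castrated and 10 and 7 in intact mice, Krt83 had 25 in castrated mouse 3 against 9 in intact mouse 2, and Krt39 had 119 counts in castrated mouse 1 and 83 in intact mouse 1 with 2 to 10 in the remaining mice. Krt33a with Krt33b, and Krt81 with Krt83 and Krt86, are related neighbouring genes whose reads may be shared, which was not tested. Krt42 and Krt16, type I keratins of nail and of activated epidermis, were also far higher in that mouse, with 810 and 554 counts against 0 to 18 elsewhere.

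Markers of skin and hair were read in the same libraries. The 8 hair shaft markers, which are keratin-associated proteins, trichohyalin and related genes, summed to 23.0, 14.0 and 21.5 CPM in castrated and 16.3 and 155 in intact mice. Most of the last value was Tchh, trichohyalin, an inner root sheath protein, at 124 CPM against 4.54 to 11.9, and the next was Padi3, an enzyme that modifies it, at 28.3 CPM against 4.18 to 18.0. Of the keratin-associated proteins that define the hair shaft, Krtap8-1 and Krtap11-1 were at 0 in every library, and Krtap3-1, Krtap3-2 and Krtap3-3 were at 0 in 4 libraries and at 0.325 to 0.604 CPM in intact mouse 2. The 9 skin and cornified cell markers summed to 94.9, 38.7 and 43.5 CPM in castrated and 62.9 and 228 in intact mice, with Sprr1a the most abundant, and 8 of the 9 were highest in intact mouse 2. Lor, the main cornified envelope protein, was the exception, at 1.99, 1.98 and 1.95 CPM against 5.96 and 4.79. Markers of seminal vesicle summed to 7.58 CPM in that mouse and to at most 0.174 in the others. The part of skin, hair follicle or glandular cells in the keratin values of intact mouse 2 was not tested.

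The promoters of these groups differed in the letters they held. RefSeq promoters (build GRCm38.p6) matched 36 of the 54 keratins, 37 promoters in all, and the 250 bases before each start were searched on both strands for 3 motifs. Krt15, Krt19 and Krt4 were among the keratins without a promoter entry. The first was TATAAA, the core of a TATA box. The second was CTTTGA, a core of TCF/LEF sites, through which β-catenin acts. The third was GGGCGG, a GC box. The 3 motifs share no run of letters that would make one match count for another. TATAAA was found in 12.4% of the 32851 promoters in the table and in 17 of the 37 keratin promoters (45.9%). These were 7 of 7 inner root sheath, 6 of 9 hair, 2 of 5 other and 2 of 11 squamous promoters, and none of the 3 luminal and 2 basal ones. On the gene's own strand, with its first base 20 to 40 bases before the start, it was found in 1.99% of all promoters. Among keratins it was found there in 5 of 7 inner root sheath, 4 of 9 hair, 2 of 5 other and 2 of 11 squamous promoters, and in no luminal or basal one. CTTTGA was found in 13.8% of all promoters, in 9 of 37 keratin promoters and in 5 of 9 hair promoters. GGGCGG was found in 32.7% of all promoters and in 2 of 37 keratin promoters, 1 of them that of Krt7, with 4 matches. These are matches of letters, not tested sites. The promoters below show the contrast, Krt73 (chr15:101802361-101802610, minus strand) and Krt28 (chr11:99374904-99375153, minus strand) for the inner root sheath keratins seen in intact mouse 2, Krt34 (chr11:100041555-100041804, minus strand) for a hair keratin with 2 CTTTGA matches, and Krt7 (chr15:101412153-101412402, plus strand) for a luminal keratin. Each is printed 5′ to 3′ on the gene's strand and ends at the base before the start. Capitals mark TATAAA in Krt73, Krt28 and Krt34, CTTTGA or its reverse complement TCAAAG in Krt28 and Krt34, and GGGCGG or its reverse complement CCGCCC in Krt7.
Krt73: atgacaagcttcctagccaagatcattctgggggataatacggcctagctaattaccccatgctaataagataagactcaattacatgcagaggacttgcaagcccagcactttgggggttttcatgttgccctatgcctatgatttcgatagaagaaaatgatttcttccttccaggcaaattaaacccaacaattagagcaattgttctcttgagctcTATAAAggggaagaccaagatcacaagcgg
Krt28: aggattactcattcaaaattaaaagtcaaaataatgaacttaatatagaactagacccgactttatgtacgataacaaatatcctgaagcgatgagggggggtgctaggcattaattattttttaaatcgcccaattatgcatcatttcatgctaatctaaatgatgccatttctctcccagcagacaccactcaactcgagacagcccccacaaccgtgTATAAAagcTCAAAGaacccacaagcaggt
Krt34: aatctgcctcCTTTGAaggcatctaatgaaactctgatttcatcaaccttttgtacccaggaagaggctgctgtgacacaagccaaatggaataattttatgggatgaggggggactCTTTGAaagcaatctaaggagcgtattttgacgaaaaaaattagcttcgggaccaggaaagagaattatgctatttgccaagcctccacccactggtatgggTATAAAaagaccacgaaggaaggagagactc
Krt7: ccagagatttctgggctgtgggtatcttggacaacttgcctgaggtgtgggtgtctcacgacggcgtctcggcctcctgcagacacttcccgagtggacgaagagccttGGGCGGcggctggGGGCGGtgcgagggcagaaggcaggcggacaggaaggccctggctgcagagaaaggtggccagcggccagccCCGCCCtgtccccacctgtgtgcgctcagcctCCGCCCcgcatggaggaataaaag

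Among the remaining keratins Krt23 and Krt20 overlapped between the groups, while Krt222 and Krt90 did not. Krt23, a type I keratin of simple epithelia, was among the abundant keratins, at 568 CPM in castrated mouse 1, 142 and 117 in castrated mice 2 and 3, 937 in intact mouse 1 and 218 in intact mouse 2. Castrated mouse 1 and intact mouse 1 were thus the high pair (log2 fold change -1.07 ± 0.91, adjusted p = 0.613 by edgeR). Krt20, a keratin of umbrella cells and gut epithelium, had the same top pair, with 14.0, 4.29 and 2.09 CPM in castrated and 26.0 and 1.63 in intact mice (-1.02 ± 1.24). Krt222 (chr11:99232761-99244147, minus strand), a keratin-like gene, was at 1.12, 1.72 and 1.46 CPM in castrated and 0.0896 and 0.0930 in intact mice. Its log2 fold change of 3.89 ± 0.69 (adjusted p = 0.289 by edgeR) rested on 32, 32 and 30 counts against 2 and 2, and the gene was tested only because the castrated mice exceeded 1 CPM. Krt90 (chr15:101552356-101562950, minus strand), whose role is little described, was at 0.593, 0.0536 and 0 CPM in castrated and 1.17 and 5.76 in intact mice (-3.84 ± 1.33, adjusted p = 0.310 by edgeR). It had 17, 1 and 0 counts against 26 and 124, and it missed the unadjusted threshold without castrated mouse 2, castrated mouse 3 or intact mouse 2.

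Of the other intermediate filaments, Vim, Des, Prph and Synm were higher in every castrated mouse than in both intact mice. Of 12 genes 11 were tested, 6 with a fold change above 0 and 5 below (median 0.21). The unadjusted threshold was passed by 4, all of them higher, namely those 4 (7.66% of all tested genes were higher at that threshold). Of those 4, Prph had passed the filter only through the castrated mice, where it was higher. Vim, the filament of mesenchymal cells, was at 692, 1652 and 950 CPM in castrated and 457 and 213 in intact mice (log2 fold change 1.71 ± 0.56, adjusted p = 0.302 by edgeR). Des, the muscle filament desmin, read 24.4, 44.1 and 55.2 CPM against 7.35 and 3.86 (2.88 ± 0.52, adjusted p = 0.289 by edgeR). Prph and Synm, which belong to nerve and muscle filaments, had log2 fold changes of 4.02 ± 0.98 and 1.20 ± 0.44. Prph was at 1.57, 2.84 and 7.02 CPM in castrated and 0.134 and 0.325 in intact mice. It was tested only because the castrated mice exceeded 1 CPM, so its difference followed in part from the filter. The lamins Lmna and Lmnb1 of the nuclear envelope, made by nearly all cells, had log2 fold changes of 0.21 ± 0.20 and -0.14 ± 0.23, and Lmnb2 was slightly lower in every castrated mouse (-0.39 ± 0.24). The neurofilament genes Nefl, Nefm and Nefh overlapped between the groups. Beside these values, the 8 smooth muscle markers summed to 414, 723 and 667 CPM in castrated and 247 and 157 in intact mice. Acta2 led in the castrated mice, and Tagln in the intact mice, at 97.3 and 62.6 CPM against 77.1 and 57.5 of Acta2. None of the 8 was at 0, and 7 were higher in every castrated mouse (17.0% of all tested genes). The 11 adipocyte markers summed to 55.5, 1240 and 1239 against 36.7 and 92.9 CPM. Car3 led in castrated mice 2 and 3, at 524 and 566 CPM. Fabp4 led in castrated mouse 1, at 37.0 CPM, and in the intact mice, at 26.0 and 52.0. Counts of 0 were read for 5 of the 11 in each intact library and for 1 in castrated mouse 1. The 10 macrophage markers summed to 2675, 7440 and 3043 against 1136 and 1724 CPM, with Lyz2 on top. The 6 fibroblast markers summed to 4326, 5416 and 7188 against 4137 and 2469 CPM. Dcn led in castrated mice 2 and 3, at 2662 and 3825 CPM. Col3a1 led in castrated mouse 1, at 1217 CPM, and in the intact mice, at 1212 and 821. No gene of either list was at 0. The 8 general epithelial markers summed to 2421, 2372 and 2302 against 3902 and 2362 CPM. Epcam led in castrated mouse 1 and intact mouse 1. Cdh1 led in castrated mice 2 and 3 and intact mouse 2, at 732, 809 and 690 CPM against 729, 637 and 511 of Epcam. The part of stromal and fat cells in these values was not tested.

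The 12 proteins that anchor or link keratin filaments showed small differences. Of these, 4 had a fold change above 0 and 8 below (median -0.30), and none passed the unadjusted threshold of edgeR. Dsp, desmoplakin, which ties filaments to desmosomes, was at 571, 391 and 486 CPM in castrated and 383 and 867 in intact mice. Jup, plakoglobin of the same junctions, was slightly higher in every castrated mouse, at 304, 227 and 246 against 214 and 204 CPM (0.31 ± 0.21, adjusted p = 0.529 by edgeR). Plec, plectin, a linker to hemidesmosomes, was slightly lower in every castrated mouse, at 222, 253 and 266 against 346 and 291 CPM (-0.37 ± 0.20, adjusted p = 0.439 by edgeR), as were Pkp3 and Fam83h. Of the 12 linkers, 1 was thus higher and 3 lower in every castrated mouse, beside 17.0% and 16.1% of all tested genes. All 14 transcription factors known to act on epithelial keratin genes were tested, with 3 above 0 and 11 below (median -0.39), and 10 of the 14 were highest in intact mouse 2. Ovol1, a repressor active in differentiating epidermis, was the only one past the unadjusted threshold, 1 of 14 beside 10.9% of all tested genes, at 4.43, 6.11 and 3.95 CPM in castrated and 6.77 and 21.9 in intact mice (-1.57 ± 0.56, adjusted p = 0.316 by edgeR; -0.53 without intact mouse 2). Grhl1, an activator of desmosomal and cornification genes, was at 8.58, 31.1 and 39.2 against 6.23 and 144 CPM. Hoxb13, a homeobox factor of the prostate, was at 5.06, 20.6 and 25.9 against 3.45 and 70.7 CPM. For both genes, as for Krt5 and Krt14, intact mouse 1 was lowest and intact mouse 2 highest. Over the same genes without intact mouse 2, the medians of the linkers and the transcription factors were 0.12 and 0.68.

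The ratio of Krt6a to Krt16 rested on few Krt16 counts, 6 to 18 in every mouse but intact mouse 2, which had 554. The split of reads between Krt16 and its related neighbours was not tested and is uncertain. Per length, Krt6a was 59.2, 23.8 and 41.7 times Krt16 in castrated mice, 14.1 times in intact mouse 1 and 1.22 times in intact mouse 2. The log2 difference of 3.27 had an exact permutation p of 0.2, the smallest that 3 against 2 mice allow, and an adjusted p of 0.945. The difference was 1.49 without intact mouse 2 and 5.04 without intact mouse 1. Krt1 to Krt10 per length was 0.480, 0.134 and 0.198 against 0.0693 and 1.02, again with the castrated mice between the intact ones (exact permutation p = 1.0). In all, 13 ratios were compared, 7 between keratins and 6 of group sums to Epcam, with exact permutation p of 0.2 to 1.0 and Benjamini-Hochberg adjusted p of at least 0.945.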

How the data were processed

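The authors aligned trimmed paired-end reads from ribosomal RNA-depleted tumor RNA to mm10 and deposited raw counts per gene (Trimmomatic 0.39, STAR 2.7.9 and HTSeq 2.0.2 per the submitters' processing notes); the strand setting of the counting is not given in the sources used here, so overlapping and antisense genes cannot be told apart. Tumor tissue was checked by microscopy before extraction. The libraries are taken as 1 per mouse, so p-values measure the spread between these 5 mice.

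Counts were tested in R 4.3.3 with edgeR 4.0.16 (TMM, quasi-likelihood F-test, Benjamini-Hochberg over all genes with CPM above 1 in at least 2 samples; calls needed an adjusted p under 0.05 and a log2 fold change beyond 1 in either direction). Fold changes are castrated minus intact. TPM was computed from the counts and the gene lengths in the table. Ratios used 0.5 added counts and two-sided exact permutation tests (scipy 1.17.1). Alternatives included DESeq2 1.42.0, limma 3.58.1 voom, other scalings and filters, TPM with a pseudocount of 1, a replicate block and each mouse left out; the code was tested on simulated data. Intervals from counts cover counting error only. The keratins and gene lists were chosen with earlier results of these data known. Named were all tested keratins with a mean of at least 5 CPM, the 3 largest changes in each direction, the group examples and list members whose groups did not overlap or that the lists' roles turn on, the latter after their values were seen. Some members of the marker and regulator lists are not reported here.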

Additional observations from a re-analysis of the deposited data

How the results depend on the processing

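The count of genes called was 0 in the edgeR test and 989 by DESeq2 (703 higher, 286 lower), 369 by the likelihood ratio test (276 higher, 93 lower) and 1596 without adjustment; the counts of keratins called were 3, 3 and 4. The fits without 1 mouse called 0 to 1 genes and 0 keratins, and 3 to 9 keratins and 867 to 2588 genes at an unadjusted p, with 7 keratins without intact mouse 2 and 8 or 9 without intact mouse 1. Without a filter 17 keratins passed at an unadjusted p, with filterByExpr 7, and with CPM above 1 in all samples 2. Deviations from the group mean correlated at 0.149 and -0.05 between mice of the same replicate number. The deviations of 2 intact mice mirror each other, so these values cannot decide whether the numbers pair the mice. The replicate block left 975 genes at an unadjusted p. TPM moved the median of all genes to 0.12. Of the 21 keratin fold changes, 6 kept their sign under every setting, 7 reversed with another setting and 14 crossed 0 with a mouse left out; the cause was not tested. Krt7 became 0.086 with voom, 0.21 with the replicate block and 0.22 with TPM, Krt14 0.50, 0.15 and 0.60, and Trp63 0.63, 0.045 and 0.62. Krt5 became 0.47 with voom and 0.59 with TPM, Krt6b 0.15 with voom, and with the block Krt8 became -0.084, Krt13 -0.26 and Krt20 0.21. The luminal median was 0.039 with TPM, the squamous median -0.22 with voom, the median of the other keratins -0.23 with the block, and that of all keratins -1.94 without a filter. With 1 mouse left out in turn, the log2 fold changes that crossed 0 ran for Krt18 from -0.54 to 0.031, for Krt7 from -0.89 to 1.08, for Krt8 from -0.35 to 0.51, for Krt14 from -1.05 to 2.17, for Krt5 from -1.24 to 2.51, for Krt1 from -4.23 to 2.39, for Krt10 from -2.24 to 0.082, for Krt6a from -0.87 to 0.51, for Krt6b from -4.13 to 6.76, for Krt79 from -3.56 to 1.61, for Krt80 from -2.63 to 1.44, for Krt39 from -3.50 to 1.74, for Krt20 from -2.11 to 2.08, for Krt23 from -2.16 to 0.36, and for Trp63 from -1.09 to 2.90. The medians ran for luminal keratins from -0.45 to 0.27, for basal keratins from -1.05 to 2.51, for squamous keratins from -2.24 to 1.61, for other keratins from -2.15 to 2.08, for all keratins from -0.37 to 1.22, for filament linkers from -0.46 to 0.12, for other intermediate filaments from -0.16 to 1.12, and for epithelial keratin regulators from -0.99 to 0.68. The log2 ratio differences ran for Krt5 to Krt14 from -0.29 to 0.24, for Krt7 to Krt19 from -0.70 to 1.39, for Krt1 to Krt10 from -2.20 to 1.94, for Krt5 to Krt8 from -1.91 to 2.7, for luminal keratin sum to Epcam from -0.31 to 0.51, for basal keratin sum to Epcam from -1.0 to 3.47, for squamous keratin sum to Epcam from -1.02 to 2.33, and for inner root sheath keratin sum to Epcam from -9.13 to 2.76. With 2 intact mice, group and mouse differences cannot be told apart for keratins in which the intact mice lie at opposite ends, and low keratins rest on few counts.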
